A study of Rattus norvegicus with 12 samples.

Results

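The genes described here are 45 genes of mitosis and the spindle, chosen by name from the machinery that condenses, attaches, separates and parcels out the chromosomes. They were chosen with earlier results of these data known. A gene was measured where the array had a probe set annotated to it alone, and its brightest probe set, the one with the highest mean over the 6 arrays, stood for it. Of the 45 genes, 41 were measured, among 14217 genes of the array. Nek2, Ndc80 and Kif4a had no probe set of their own in the table used here, and Anln was only on a probe set that it shares with another gene.

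RNA came from F111 cells, which the study describes as a normal fibroblast line of the Fischer rat, in 2 states. The study also reports aneuploidy in F111 cells, with more of it in tumour-derived cells. Its part in the differences was not tested. A16 cells, the control, had grown attached to plastic for 16 h. Tumor cells were cultured out of tumours that had formed in nude mice after F111 cells, first held in suspension for 16 h (NA16), were injected under the skin, and are labelled as 3 months after injection. Serum was 10% for all cells by the labels but higher for explanted tumours by the methods of the study, and how many tumours or mice gave the Tumor cells is not stated. Each group had 3 arrays, namely replicate 1, replicate 2 and a technical replicate 2 with no biological number. The last was assumed to belong to replicate 1, the array with a technical number, and was averaged with it, so that n = 2 per group. Replicates 1 and 2 are labelled biological, without naming the cultures, tumours or mice they came from, so p-values rest on the spread between these labelled samples. All values are log2 array intensity, so that a difference of 1 is a 2-fold change, and differences are Tumor minus A16 with a moderated standard error (SE).

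A cell enters mitosis when cyclins A and B switch on the kinase Cdk1. Aurora and polo-like kinases then drive spindle assembly, kinetochores on the centromeres hold the microtubules, and the spindle checkpoint delays the anaphase-promoting complex until every chromosome is attached. Many genes of this machinery are transcribed late in the cell cycle, so that their RNA is abundant in dividing cells and scarce in resting ones. Their promoters often carry the cell cycle genes homology region (CHR), bound by the DREAM and MuvB complexes, and boxes for the factor NF-Y.

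Promoters are shown for genes that fell by 2-fold or more or rose against the group, where RefSeq had an entry, because CHR letters stood in each of them. They run from 150 bases before the annotated start to 30 after it, 5′ to 3′ on the gene's strand, from RefSeq on the GRCr8 assembly. Capitals mark CHR letters (TTTGAA or TTTAAA, or TTCAAA on the opposite strand) and NF-Y box letters (CCAAT, or ATTGG on the opposite strand). Smc4 lies at chr2:155550112-155550291 (+), Nusap1 at chr3:127057145-127057324 (+), Birc5 at chr10:103571996-103572175 (+) and Top2a at chr10:84473064-84473243 (-). Cenpa lies at chr6:31431523-31431702 (-), Kif22 at chr1:191080849-191081028 (-) and Cenpf at chr13:103760857-103761036 (-). The first 4 genes were lower and the last 3 higher in Tumor cells.
Smc4: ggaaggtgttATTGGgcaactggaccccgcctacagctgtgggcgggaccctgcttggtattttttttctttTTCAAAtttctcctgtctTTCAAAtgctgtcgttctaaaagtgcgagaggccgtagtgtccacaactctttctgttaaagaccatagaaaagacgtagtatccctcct
Nusap1: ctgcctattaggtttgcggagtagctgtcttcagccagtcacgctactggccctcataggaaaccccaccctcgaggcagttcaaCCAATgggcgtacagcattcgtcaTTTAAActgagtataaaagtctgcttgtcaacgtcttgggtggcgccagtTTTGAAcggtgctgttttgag
Birc5: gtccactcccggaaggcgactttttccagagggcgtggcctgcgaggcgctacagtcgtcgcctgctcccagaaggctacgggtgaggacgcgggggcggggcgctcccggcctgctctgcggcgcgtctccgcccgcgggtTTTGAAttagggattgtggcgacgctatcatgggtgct
Top2a: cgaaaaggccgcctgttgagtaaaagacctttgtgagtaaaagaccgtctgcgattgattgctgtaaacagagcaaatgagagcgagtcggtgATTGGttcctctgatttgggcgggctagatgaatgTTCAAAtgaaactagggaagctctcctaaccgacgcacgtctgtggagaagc
Cenpa: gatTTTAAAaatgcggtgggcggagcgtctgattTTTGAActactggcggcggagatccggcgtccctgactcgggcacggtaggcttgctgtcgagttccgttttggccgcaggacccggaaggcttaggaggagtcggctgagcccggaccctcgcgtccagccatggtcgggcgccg
Kif22: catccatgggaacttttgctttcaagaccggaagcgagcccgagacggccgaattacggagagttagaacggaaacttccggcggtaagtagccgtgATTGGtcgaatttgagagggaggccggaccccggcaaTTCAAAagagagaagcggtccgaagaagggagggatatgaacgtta
Cenpf: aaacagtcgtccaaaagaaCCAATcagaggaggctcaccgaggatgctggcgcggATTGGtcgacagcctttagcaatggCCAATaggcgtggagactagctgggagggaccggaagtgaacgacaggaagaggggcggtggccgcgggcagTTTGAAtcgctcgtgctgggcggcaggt

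Among the 41 promoters that RefSeq held for the 45 genes, in windows from 250 bases before to 50 after the start, 37 (90.2%) had CHR letters on either strand. Over the 11700 measured genes with a promoter entry the share was 21.1%. Within 70 bases before to 30 after the start the shares were 63.4% and 6.15%. NF-Y box letters were in 32 of the 41 promoters (78.0%), against 38.6% of measured genes. The median first base of the CHR letters was at -41. In a wider list of mitosis genes, described further on, the shares were lower, with CHR letters in 49 of 109 promoters (25.7% near the start) and NF-Y box letters in 50 (45.9%). Promoters of S phase genes, which are transcribed earlier in the cycle, had CHR letters in 8 of 43 (18.6%) and NF-Y box letters in 25 (58.1%). Letters of the E2F site (TTTCCCGC, TTTGGCGC, TTTCGCGC or TTTGCCGC, either strand) were in 18 of these 43 (41.9%), in 11 of the 109 (10.1%) and in 1 of the 41 (2.44%). The last share was near the 3.74% of measured genes with a promoter entry. In all, 4 matches overlapped a match of the other kind (CHR with NF-Y box letters), in the promoters of Cdca8 and Mki67. There was no promoter entry for Ccna2, Ube2c, Aurkb and Racgap1, and those of Cdc25b, Nek2, Bub3 and Cdca3 had no CHR letters in this window.

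**Figure D1:**
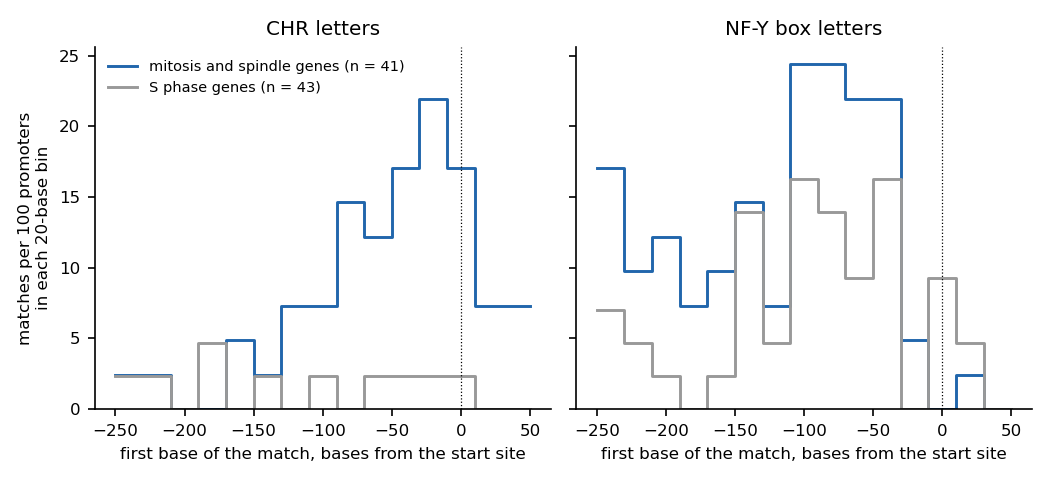
Position of CHR letters (left) and NF-Y box letters (right) in promoters, as the first base of each match in bases from the annotated start (x axis, dotted line at the start) and matches per 100 promoters in each 20-base bin (y axis), for 41 mitosis and spindle genes (blue) and 43 S phase genes (grey). CHR letters of the mitosis genes gather near the start, while few S phase promoters hold any.

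Transcripts of mitosis and spindle genes were on the whole modestly lower in Tumor cells than in A16 cells. Of the 41 genes, 20 were lower (48.8%), 3 were higher (7.32%) and 18 did not pass an adjusted p under 0.05 in limma. Among all genes, 16.6% were lower and 17.4% higher by the same test. The median difference of the group was -0.44, a 1.36-fold lower level, whereas the median of all genes was 0.03. Most changes were small, since 15 of the 20 lower genes differed by less than 2-fold. A fall of 2-fold or more was found for Smc4, Ube2c, Nusap1, Birc5 and Top2a and a rise of that size for Cenpa, where 5.44% of all genes were lower and 5.45% higher by 2-fold or more. In a bulk sample, fewer dividing cells and less of these transcripts in each cell cannot be told apart.

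The shift was alike on the 3 Tumor arrays. The median of the 41 genes, measured from their A16 means, was -0.40 on Tumor replicate 1, -0.43 on technical replicate 2 and -0.38 on replicate 2. On the A16 arrays it was 0.04, 0.06 and -0.05 in the same order, and the medians of all genes lay between -0.03 and 0.04 on the 6 arrays. The shift thus exceeded the spread between replicates, whose medians had a pooled SD of 0.05 (n = 2 per group). Of the 41 genes, 27 (65.9%) had all 3 Tumor arrays below all 3 A16 arrays, 6 had them all above, and 8 overlapped, while 27.3% of all genes lay wholly below and 28.6% wholly above. The median was -0.36 in the PLIER summary of the same arrays, in which 39 of the 41 genes kept their sign. With 1 replicate left out the median lay between -0.44 and -0.38. Fewer lower and higher genes passed without a Tumor replicate, when the residual spread came from the A16 samples alone. That drop in calls cannot tell whether the Tumor replicates differed.

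**Figure D2:**
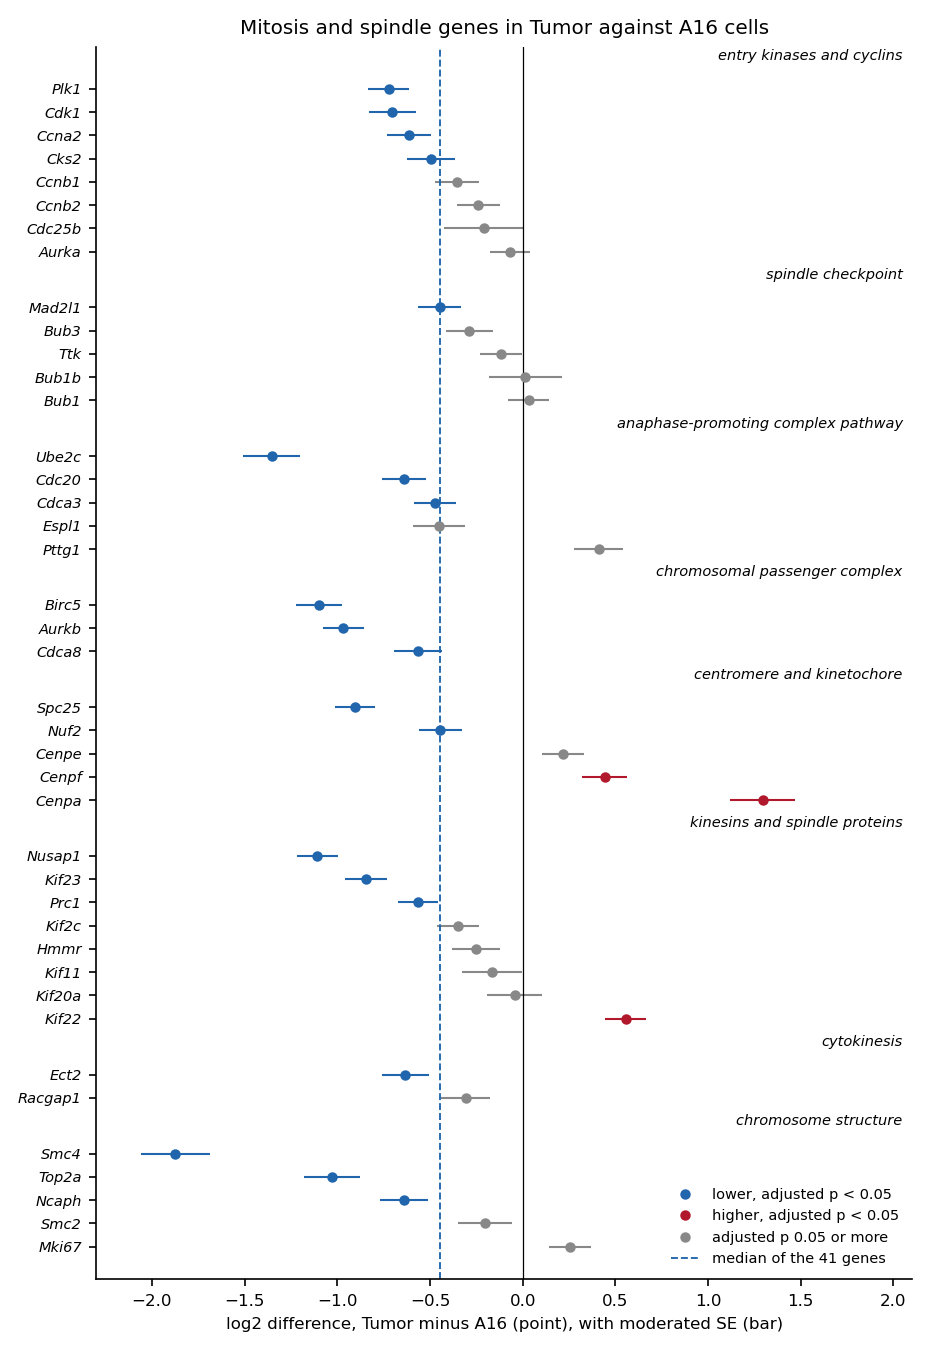
Log2 difference between Tumor and A16 cells (x axis; points, with bars for the moderated SE, n = 2 per group) of the 41 measured mitosis and spindle genes (y axis), grouped by role. Blue genes were lower and red genes higher at an adjusted p under 0.05, grey genes did not pass, and the dashed line is the median of the 41 genes, -0.44.

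Controls of the arrays also differed between the groups, and their part in the shift was not tested. Spiked poly-A transcripts, added before labelling, averaged 7.51 to 7.99 on A16 arrays and 4.82 to 4.92 on Tumor arrays, whereas hybridisation spikes, added after it, averaged 9.78 to 10.18 and 10.91 to 11.18. Signal at the 3′ end of beta-actin exceeded that at its 5′ end by 0.64 to 0.71 on A16 arrays and by 2.25 to 2.37 on Tumor arrays, so that 5′ signal was weaker against 3′ signal in Tumor RNA. For hexokinase the same gap was 0.84 to 1.39 on A16 arrays and 1.83 to 2.30 on Tumor arrays. For Gapdh it was smaller, at a mean of -0.03 in A16 and 0.29 in Tumor. Labelling and group therefore cannot be told apart. Of the 14 fibroblast markers, 5 were lower by 2-fold or more (Col1a1, Col1a2, Col5a1, Thy1 and Fn1), against 5.44% of all genes. Summed intensities of the 14 were 97410 to 106800 in A16 and 63880 to 65970 in Tumor. Bright markers that did not pass included Vim (14.29 in A16 and 14.19 in Tumor), S100a4 (13.95 and 14.19), P4hb (13.49 and 13.30) and Pdgfra (10.43 and 10.37). Dcn, Lum and Fap lay below the array median of 6.63 in both groups. Of the 12 macrophage markers, 2 were higher by 2-fold or more (Csf1r, 5.46 to 8.60, and Cd68, 6.01 to 7.09), against 5.45% of all genes. Their list had sums of 1473 to 1632 in A16 and 1849 to 1918 in Tumor, while Ptprc (5.13 and 5.06) and Adgre1 (3.97 and 4.11) stayed low. Of the 7 endothelial markers measured of 8 listed, 2 were higher (28.6%, against 17.4% of all genes), both by less than 2-fold. They were Vwf (5.446 in A16 and 6.178 in Tumor, 0.73 ± 0.11, adjusted p = 0.0038) and Pecam1 (5.826 and 6.355, 0.53 ± 0.15, adjusted p = 0.0377). Their means lay below the array median of 6.63 in both groups, as did 6 of the 7 Tumor means. Of the 7 markers, 3 had negative differences. Sums of the list were 353 to 399.2 in A16 and 392.3 to 451.3 in Tumor.

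All 8 measured genes that open mitosis had negative differences, where 6659 of all 14217 genes did. These 8 genes had a median of -0.43, and 4 of them passed as lower, against 16.6% of all genes. Cdk1, the kinase that drives entry, differed by -0.70 ± 0.13 (adjusted p = 0.00703), and its partner cyclin A2 (Ccna2) by -0.61 ± 0.12 (adjusted p = 0.00934). Plk1, the polo-like kinase of spindle assembly, was lower by the most in this set (-0.72 ± 0.11, adjusted p = 0.0034), and Cks2, a small subunit that binds Cdk1, differed by -0.50 ± 0.13 (adjusted p = 0.0293). The B cyclins, which complete the Cdk1 switch, did not pass, with -0.36 ± 0.12 for Ccnb1 (adjusted p = 0.0629) and -0.24 ± 0.11 for Ccnb2 (adjusted p = 0.168), although the 3 Tumor arrays lay below the 3 A16 arrays for both. Aurka, the Aurora kinase of the spindle poles, stood at 10.82 in A16 and 10.75 in Tumor. The phosphatase Cdc25b, an activator of Cdk1, had A16 arrays spread from 9.50 to 10.33 and a difference of -0.21 ± 0.22.

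Spindle checkpoint genes had a median of -0.12, and 1 of 5 passed. Mad2l1, which holds back the activator of the anaphase-promoting complex, was lower by all 3 of its probe sets (-0.45 ± 0.12, -0.58 ± 0.17 and -0.51 ± 0.12, with adjusted p of 0.0268, 0.042 and 0.0164). The checkpoint kinase Bub1 differed by 0.03 ± 0.11 and its relative Bub1b by 0.01 ± 0.20, and their groups overlapped. Bub3, the partner of both, had -0.29 ± 0.13 and Ttk, the kinase that starts checkpoint signalling, -0.12 ± 0.11, neither of which passed.

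In the anaphase-promoting complex pathway the fall was led by Ube2c, the ubiquitin-conjugating enzyme that works with the complex. On A16 arrays it read 11.85 in replicate 1, 12.05 in technical replicate 2 and 11.96 in replicate 2, and on Tumor arrays 10.35, 10.45 and 10.80. The groups stood over 1 log2 unit apart without overlap, and the difference was -1.35 ± 0.15, a 2.56-fold fall (adjusted p = 0.00109). The activator Cdc20 (-0.64 ± 0.12, adjusted p = 0.00791) and Cdca3, known as a trigger of mitotic entry (-0.47 ± 0.11, adjusted p = 0.0198), were lower as well. Espl1, the separase that cuts cohesin, was just short of passing (-0.45 ± 0.14, adjusted p = 0.0526). Its inhibitor securin (Pttg1) went the other way in sign, reading 11.54, 11.74 and 11.40 in A16 and 11.99, 12.01 and 11.86 in Tumor. The Pttg1 groups did not overlap, but its difference of 0.41 ± 0.13 did not pass (adjusted p = 0.0597).

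The chromosomal passenger complex corrects faulty attachments and later starts cytokinesis. The 3 of its genes in the group were lower, where 16.6% of all genes were. The scaffold of the complex, Incenp, is from the wider list of mitosis genes. Incenp stood at 8.85 in A16 and 8.90 in Tumor with overlapping arrays (0.05 ± 0.12, adjusted p = 0.783). Birc5 (survivin), which targets the complex to chromatin, read 10.90, 10.82 and 10.93 in A16 and 9.96, 9.85 and 9.69 in Tumor. Its difference was -1.10 ± 0.12 (2.14-fold, adjusted p = 0.00106). The kinase of the complex, Aurkb, was close to it (-0.97 ± 0.11, 1.95-fold, adjusted p = 0.00119), and Cdca8 (borealin) differed by less (-0.56 ± 0.13, adjusted p = 0.0176). For Cdca8 the PLIER value was -0.23. Of the Aurora kinases, therefore, the centromeric Aurkb was lower while polar Aurka did not pass. Whether the shifts of these kinases differ from each other was not tested.

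Centromere and kinetochore genes divided in direction. Cenpa, the histone H3 variant that marks the centromere, was the highest of the 41 genes and lay outside the range set by 1.5 interquartile ranges beyond the quartiles of the group (-1.43 to 0.67). It read 6.53, 6.70 and 7.02 on A16 arrays and 8.05, 8.48 and 7.96 on Tumor arrays. All Tumor arrays were higher, by 1.29 ± 0.18 (2.45-fold, adjusted p = 0.00226), and PLIER gave 1.64. The A16 level of this probe set was near the median of the array (6.63). Cenpf, a large kinetochore protein of late cell cycle phases, read 10.31, 10.25 and 10.19 in A16 and 10.85, 10.71 and 10.58 in Tumor. Its rise of 0.44 ± 0.12 passed (adjusted p = 0.0356), but not without Tumor replicate 1 (0.34, adjusted p = 0.232), Tumor replicate 2 (0.54, adjusted p = 0.0742) or A16 replicate 2 (0.40, adjusted p = 0.0653). Cenpe, the kinesin of the kinetochore, had 0.22 ± 0.11 and did not pass. Spc25 and Nuf2, subunits of the Ndc80 complex that grips microtubules, were lower instead (-0.91 ± 0.11, adjusted p = 0.00134, and -0.44 ± 0.12, adjusted p = 0.0294).

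**Figure D3:**
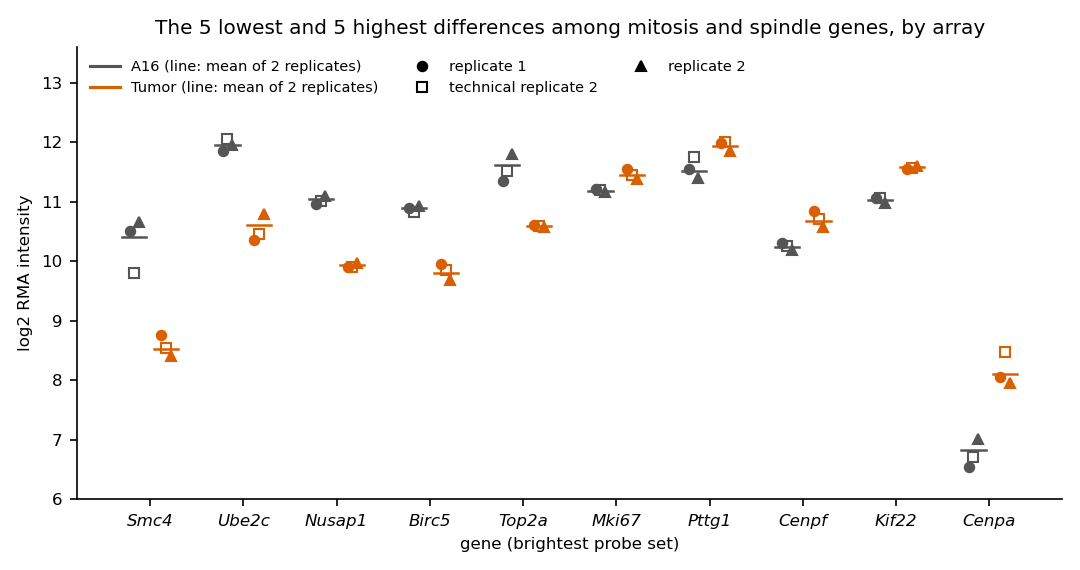
Log2 RMA intensity (y axis) on each array for the 5 genes with the lowest and the 5 with the highest differences (x axis), with A16 arrays in grey, Tumor arrays in orange, and a line at the mean of the 2 replicates of a group. The groups do not overlap for any of the 10 genes, but the genes were picked by these differences, which favours separation. Over all genes 27.3% had the Tumor arrays wholly below and 28.6% wholly above the A16 arrays. Technical replicate 2 of A16 lies apart from the other A16 arrays for Smc4.

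Kinesins and other spindle proteins had a median of -0.30, with 3 of 8 lower (37.5%) and 1 higher (12.5%). Over all genes 16.6% were lower and 17.4% higher. Nusap1, which bundles microtubules near chromosomes, read 10.96, 11.02 and 11.09 in A16 and 9.90, 9.89 and 9.97 in Tumor. The arrays of each group lay close together, and the fall of 1.11 on the log2 scale (SE 0.11, 2.16-fold) had an adjusted p of 0.0007. The 2 lower genes besides Nusap1 act on the central spindle, the kinesin Kif23 (-0.85 ± 0.11, adjusted p = 0.0021) and the bundler Prc1 (-0.56 ± 0.11, adjusted p = 0.0083). Kif22, a kinesin that pushes chromosome arms away from the poles, departed from the group. It read 11.06, 11.07 and 10.98 in A16 and 11.54, 11.57 and 11.60 in Tumor, a rise of 0.56 ± 0.11 (1.47-fold, adjusted p = 0.00984). The Kif22 call did not hold without Tumor replicate 1 or without Tumor replicate 2, when the residual spread came from A16 samples alone. The spindle pole kinesin Kif11 (-0.17 ± 0.16), the cytokinetic kinesin Kif20a (-0.04 ± 0.15), the microtubule depolymeriser Kif2c (-0.35 ± 0.11) and the hyaluronan receptor and spindle protein Hmmr (-0.25 ± 0.13) did not pass by their brightest probe sets.

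Of the pair of measured cytokinesis genes, Ect2, which activates RhoA at the division plane, was lower (-0.63 ± 0.13, adjusted p = 0.0102). Racgap1, its partner on the central spindle, had -0.31 ± 0.13 (adjusted p = 0.128).

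Chromosome structure held the lowest gene of the group, Smc4, the condensin ATPase, which was also below the range of -1.43 to 0.67 given above. Smc4 read 10.52 in A16 replicate 1, 9.79 in technical replicate 2 and 10.65 in replicate 2, against 8.76, 8.54 and 8.41 in Tumor. Although technical replicate 2 of A16 stood lower than the other A16 arrays, the groups did not overlap, and the difference was -1.87 ± 0.19 (3.66-fold, adjusted p = 0.000674). Ncaph, a regulatory subunit of condensin, was lower too (-0.64 ± 0.13, adjusted p = 0.0105), while Smc2, the ATPase that pairs with Smc4, had overlapping groups and -0.21 ± 0.15. Top2a, the topoisomerase that untangles sister chromatids, read 11.34, 11.51 and 11.80 in A16 and 10.60, 10.60 and 10.57 in Tumor, and fell by 1.03 on the log2 scale (SE 0.15, 2.04-fold, adjusted p = 0.00292). Mki67, which coats mitotic chromosomes and is the common marker of proliferating cells, read 11.22, 11.20 and 11.16 in A16 and 11.55, 11.45 and 11.39 in Tumor. Its Tumor arrays were all above the A16 arrays, and the difference of 0.26 ± 0.11 did not pass (adjusted p = 0.138). The usual proliferation markers Mki67 and Top2a thus had differences of opposite sign.

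CHR letters of either form were about as frequent in lower genes (16 of 17 promoters) as in measured genes that were not lower (18 of 20), and all 3 higher genes had them. The forms differed in share. TTTGAA was in 15 of the 17 promoters of lower genes (88.2%) and in 11 of the 20 others (55.0%), and TTTAAA in 3 and 10 of them. The 3 higher genes are among those 20, and all 3 had TTTGAA and 2 had TTTAAA. Since direction was used to form these sets and they are small, the shares are a description and were not tested. In the sequences above, the lower genes had CHR letters at -78 and -60 (Smc4), -41 and 10 (Nusap1), -8 (Birc5) and -22 (Top2a). Among the higher genes Kif22 had them at -16 and Cenpf at 3. Those of Cenpa, at -147 and -116, lay farther out than the others shown. Cenpf also had CHR letters at -153, just before the stretch shown.

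The fall of several genes depended on the probe set that was read. Of the 41 genes, 13 had more than 1 probe set, with 17 dimmer ones in all. The dimmer sets were more negative than the brightest in 10 of 17 cases (58.8%) and differed from it by over 1 log2 unit in 4 (23.5%), shares that were 61.5% and 22.0% over all genes. Kif23 was the widest case. Its dimmer probe set read 9.06, 9.02 and 9.35 in A16 and 6.62, 6.46 and 6.43 in Tumor, a difference of -2.71 ± 0.14 (6.55-fold, adjusted p = 5.44e-05) beside -0.85 for the brightest. Hmmr and Kif2c, which did not pass by their brightest probe sets, were lower by over 2-fold on the dimmer ones (-1.35 ± 0.21, adjusted p = 0.00415, and -1.09 ± 0.13, adjusted p = 0.00114). Racgap1 (-0.79 ± 0.16, adjusted p = 0.0102) and Ttk (-0.71 ± 0.21, adjusted p = 0.0423) also passed there. Nusap1 (-1.52) and Top2a (-1.32) were lower still, and Kif11 reached -0.36 without passing.

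Other genes had dimmer probe sets that went less far or the other way. The fall of Smc4 was seen on its brightest probe set alone, since the dimmer, at 6.81, 6.60 and 6.91 in A16 and 6.70, 6.83 and 6.51 in Tumor, had overlapping groups and -0.17 ± 0.14. Cdc20 was the gene whose probe sets passed in both directions: besides the brightest, 3 had differences between -0.17 and -0.13 and 1 was higher by 0.51 ± 0.15 (adjusted p = 0.0393). That probe set was dim, at 6.12, 5.78 and 5.68 in A16 and 6.27, 6.15 and 6.43 in Tumor. The dimmer sets of Bub3 (0.37 ± 0.13) and Ccnb1 (0.01 ± 0.12) did not pass, and no gene had probe sets changed by 2-fold in opposite directions.

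**Figure D4:**
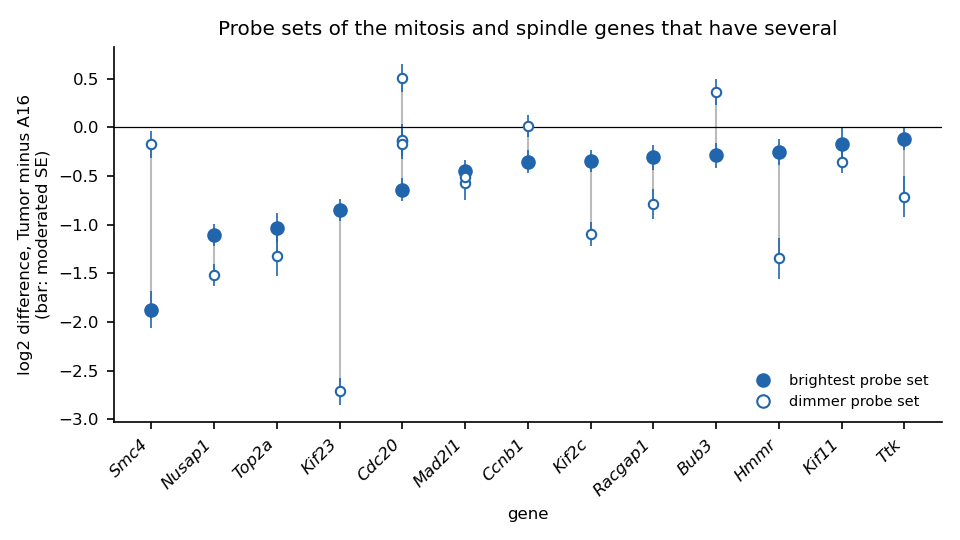
Log2 difference between Tumor and A16 cells (y axis, bars for the moderated SE, n = 2 per group) for every probe set of the 13 mitosis and spindle genes with several (x axis), with the brightest filled and the dimmer ones open. Kif23, Smc4, Hmmr and Cdc20 have probe sets over 1 log2 unit apart.

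A wider list of mitosis genes had a median of the same sign. Of 130 listed, 110 were measured, of which 40 were lower (36.4%), 7 were higher (6.36%) and 63 did not pass. Over all genes the shares were 16.6% lower and 17.4% higher. The median was -0.29. Without Tumor replicate 1 the number of lower genes was 23, and without Tumor replicate 2 it was 16. Kinetochore and checkpoint genes had the lowest median of the 5 sets (-0.49, 15 of 29 lower and 1 higher). Among them were Hjurp (-1.32 ± 0.12, adjusted p = 0.000519), the chaperone that loads Cenpa onto centromeres, Cenpt (-1.40 ± 0.14, adjusted p = 0.000632), Zwilch (-1.38 ± 0.11, adjusted p = 0.000277) and Pmf1 (-1.35 ± 0.13, adjusted p = 0.000586). Cenpa and its chaperone Hjurp thus changed in opposite directions.

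The transcription and Cdk control set had a median of -0.24, with 5 of 15 lower (33.3%) and 1 higher (6.67%), beside 16.6% and 17.4% of all genes. It included Foxm1 (-0.76 ± 0.11) and Mybl2 (-0.66 ± 0.17), transcription factors of late cell cycle genes, the phosphatase Cdc25a (-1.02 ± 0.13) and the kinase Pbk (-0.60 ± 0.16). In the anaphase-promoting complex set 5 of 18 were lower (27.8%) and none was higher (median -0.22). The lower genes were led by Ube2s, which extends ubiquitin chains (-1.30 ± 0.11), and the activator Fzr1 (-1.06 ± 0.17). The subunits Cdc27 (-0.70 ± 0.13) and Anapc16 (-0.68 ± 0.12) were lower too. Kinesins and spindle factors were mixed, with 10 of 31 lower (32.3%) and 4 higher (12.9%, under the 17.4% of all genes), and a median of -0.27. Nek6, a mitotic kinase, was the only gene of the 110 to rise by 2-fold or more (1.05 ± 0.11, adjusted p = 0.000937). The gamma-tubulin gene Tubg1 was lower (-0.88 ± 0.12) and Tubgcp2, a subunit of its ring complex, higher (0.80 ± 0.11). Condensin and cohesin genes had a median of -0.05, near that of all genes, with 5 of 17 lower (29.4%) and 1 higher (5.88%). Within that set Cdca2, a phosphatase subunit that acts on chromatin, fell by 2.03 (SE 0.13, adjusted p = 0.00012), the cohesin loader genes Nipbl (-1.20 ± 0.25) and Mau2 (-0.80 ± 0.17) were lower, and the cohesin gene Stag1 was higher (0.92 ± 0.12).

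Earlier phases of the cycle were set beside mitosis. S phase genes were lower in 22 of 45 measured (48.9%), with 2 higher (4.44%) and a median of -0.38. They included the thymidine kinase Tk1 (-1.88 ± 0.12), Uhrf1, which maintains DNA methylation (-1.66 ± 0.19), and the origin recognition genes Orc1 (-1.54 ± 0.13) and Orc6 (-1.23 ± 0.12). Without either Tumor replicate the S phase genes that passed as lower were 13 and 12. Regulators of G1 were wider in spread, with 11 of 26 lower (42.3%), 6 higher (23.1%) and a median of -0.15. Over all genes the shares were 16.6% lower and 17.4% higher. Cyclin D2 (Ccnd2) differed by -4.46 ± 0.17, Cdk2 by -2.03 ± 0.18 and cyclin D3 (Ccnd3) by -1.73 ± 0.18, while cyclin D1 (Ccnd1) rose by 1.41 ± 0.11, and Rb1, the brake on S phase entry, by 1.78 ± 0.14. Inhibitors of the cyclin-dependent kinases were lower by 2-fold or more for Cdkn1a (-1.70 ± 0.20), Cdkn2d (-1.26 ± 0.12) and Cdkn2b (8.38 in A16 and 7.38 in Tumor). Ccnd1 and these inhibitors were named after their values were seen. No difference between these lists was tested.

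**Figure D5:**
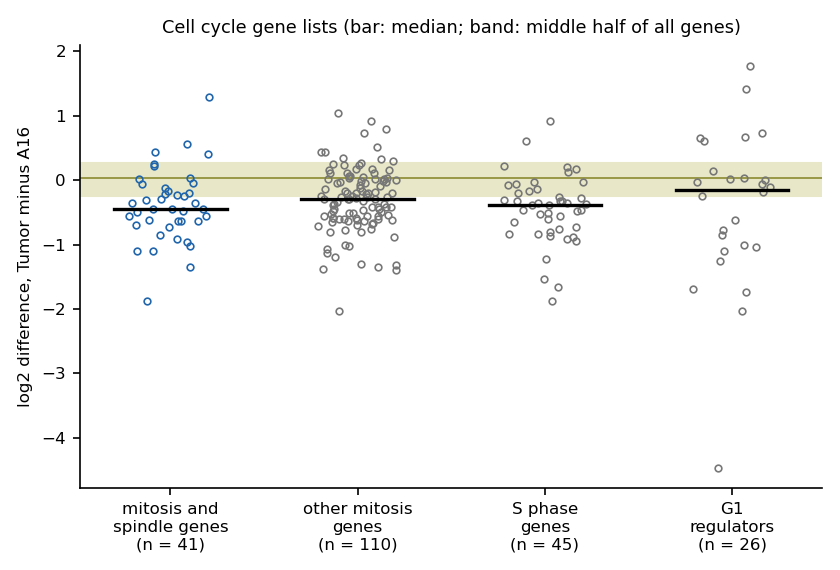
Log2 difference between Tumor and A16 cells (y axis) of each measured gene in 4 cell cycle lists (x axis), with black bars at the list medians (-0.44, -0.29, -0.38 and -0.15 from left to right). The band spans the quartiles of all 14217 genes (-0.25 to 0.27) and the line in it is their median, 0.03.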

How the data were processed

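The 12 sample records are 6 Affymetrix rat expression arrays, each summarised by the authors with RMA and with PLIER in Avadis (versions not given in the sources used here) and deposited as array intensity on a linear scale. RMA medians were 98.0 to 100.1. Here log2 was taken of the RMA values, and 57 control probe sets were left out. Probe sets were named from the platform annotation (20826 of 31042 with 1 symbol, 436 with several, which were not named). The fit of Tumor against A16 was made over all 31042 probe sets in R 4.3.3 with limma 3.58.1 (eBayes after lmFit, p-values 2-sided and adjusted by Benjamini-Hochberg) and was tested on simulated data. Genes are called lower or higher at an adjusted p under 0.05, at any fold unless 2-fold is stated. Lists are described by counts and medians. Precision is limited by the number of arrays. Values on every array are given for genes changed by 2-fold or more, departing from the group, or among its 5 lowest or 5 highest differences. Members and lists were chosen with earlier results of these data known. Alternatives covered the summary, normalisation, dim probe sets, the technical replicate, the variance model, the methods' plain test, the probe set and left-out replicates.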

Additional observations from a re-analysis of the deposited data

How the results depend on the processing

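Of the single-gene results of the 41 genes under 16 alternatives, 562 kept direction and side of the threshold, 41 no longer passed, 36 newly passed and 17 changed sign. The cause of these changes was not tested except where the alternative itself reads another probe set or fewer arrays. The number of lower genes was 12 under PLIER with an offset of 1 and 11 to 24 with 1 replicate left out, and that of higher genes 1 under PLIER with an offset of 1, 5 with technical replicate 2 as its own sample and 1 to 4 with 1 replicate left out. With technical replicate 2 averaged with replicate 2 instead, 24 genes were lower and 4 higher, and as its own sample 26 were lower. Where 1 replicate was left out, the lone sample of a group was assumed to vary like the other group. Of the 20 lower genes, 19 were still lower under PLIER, 12 with its offset of 1 and 11 without either Tumor replicate. The median was -0.36 under PLIER, -0.37 with its offset of 1, -0.37 with technical replicate 2 left out and -0.44 to -0.38 with 1 replicate left out. With 1 replicate left out, the other mitosis genes had 16 to 46 lower, 4 to 8 higher and medians of -0.34 to -0.25, and the S phase genes 12 to 27 lower, 1 to 2 higher and medians of -0.45 to -0.32. The S phase median was -0.43 under PLIER and -0.46 over all probe sets of a gene. The G1 median was -0.26 under PLIER, -0.10 with technical replicate 2 left out and -0.23 to -0.16 with 1 replicate left out. Over all probe sets changed by 2-fold or more (1985 lower, 1709 higher), PLIER with an offset of 1 gave 3113 higher and the methods' plain test after adjustment 8 lower and 4 higher, and leaving out 1 replicate gave 1684 to 2502 lower and 1651 to 1830 higher.

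Changes of sign concerned genes near 0 or with divergent probe sets. The dimmest probe set gave 0.014 for Ccnb1, 0.37 for Bub3 and 0.51 for Cdc20, and the mean of probe sets 0.038 for Bub3. PLIER gave -0.11 for Bub1b, also with an offset of 1, and for Kif20a it gave 0.022, or 0.023 with that offset. Bub1b was -0.037 with technical replicate 2 averaged with replicate 2 and -0.028 with it as its own sample. With 1 replicate left out, Bub1b ranged from -0.25 to 0.28, Bub1 from -0.009 to 0.073, Cdc25b from -0.54 to 0.12, Kif11 from -0.39 to 0.053 and Kif20a from -0.23 to 0.14. Smc4 lost its call on the dimmest probe set (-0.17). Pttg1 passed as higher in 7 alternatives.

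Replicate numbers are shared by both groups, and the deviations of replicate 1 from its group mean correlated at 0.121 over probe sets. With only 2 pairs this value cannot settle whether samples of the same number belong together. With the number as a replicate block, 21 of the 41 genes were lower and 4 higher, with a median of -0.44, and over all probe sets 2035 were lower and 1715 higher by 2-fold or more.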
